A study of Mus musculus with 4 samples.

Results

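The miR-200 family was followed in mouse embryonic stem (ES) cells and in the epiblast-like aggregates (ELA) made from them. The family consists of 5 hairpins, miR-200a, miR-200b, miR-200c, miR-141 and miR-429, and both arms of each were taken by name, which gave 10 of the 1907 mature miRNAs listed in the small RNA-seq table. Of these 10 miRNAs, 9 had reads in all 4 libraries and passed the filter for testing (at least 10 reads in at least 2 libraries), while mmu-miR-429-5p was listed at 0 in each library. All cells belonged to the E14Tg2A line (strain 129/Ola), a single ES cell line grown on gelatin, for which the labels name no altered allele. ES serum cells were kept in medium with fetal calf serum and leukemia inhibitory factor (LIF). ES 2iL cells were switched for several passages to a serum-free N2/B27 medium with LIF, the MEK inhibitor PD0325901 and the GSK3 inhibitor CHIR99021, a medium that models ground-state pluripotency. ELA serum and ELA 2iL were obtained from either kind of ES cell after 2 days (against day 0 for ES cells) as floating aggregates in a minimal N2/B27 medium without LIF, so their names refer to the ES cells of origin. Each group was 1 library, and no value below has an error between cultures.

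miR-200 family miRNAs are known as guardians of the epithelial state. Their 3p arms repress Zeb1 and Zeb2, transcription factors that shut down E-cadherin and other epithelial genes, and the Zeb proteins in turn repress both miR-200 loci, so that either side of this loop can hold a cell in an epithelial or a mesenchymal state. Naïve ES cells and the epiblast are both epithelial in character, and the epiblast is the tissue from which mesoderm later arises by an epithelial–mesenchymal transition.

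The family comes from 2 loci. In the mm9 genome the hairpins of miR-429, miR-200a and miR-200b lie in this order within 1846 bp on the minus strand (chr4:155428014-155429859), inside the protein-coding gene Ttll10 and the non-coding transcript Gm13648, both on the same strand. Mir200a and Mir200b overlap no exon of these genes, and Mir429 overlaps an exon of Gm13648. The hairpins of miR-141 and miR-200c lie within 477 bp on the minus strand (chr6:124667932-124668408), in the non-coding transcript Gm15884 on the same strand and outside its exons. The neighbouring coding genes are Phb2, 963 bp from Mir141, and Ptpn6, 2316 bp from Mir200c.

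The 3p arms are the abundant strand of all 5 hairpins, and their seeds, the bases that pair with targets, divide them into groups that cross the loci. Their mature sequences (RefSeq, table on GRCm38.p6; all 10 members matched and each was found once, in its own hairpin, in mm9) are shown 5′ to 3′ with the seed, bases 2 to 8, in capitals. The first 3 share the seed AAUACUG and the other 2 share AACACUG.
mmu-miR-200b-3p: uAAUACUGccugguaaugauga
mmu-miR-200c-3p: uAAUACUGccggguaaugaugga
mmu-miR-429-3p: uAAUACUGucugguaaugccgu
mmu-miR-200a-3p: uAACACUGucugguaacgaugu
mmu-miR-141-3p: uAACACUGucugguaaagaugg
Counted from the 5′ end, the seeds of miR-200b-3p and miR-141-3p are separated by the single substitution U4C. The loci each hold a miRNA of either seed. Across loci the sequences come close, since miR-200a-3p and miR-141-3p differ by C17A and U22G only, and miR-200b-3p and miR-200c-3p by U11G and A22G and by 1 added base in miR-200c-3p. The mismatches allowed in mapping were not stated, so a small exchange of reads between these pairs cannot be told apart from their own reads. No other mouse miRNA in the RefSeq table carried either seed.

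The 5p arms are shown for the chromosome 4 locus, where those of miR-200a and miR-200b were lower in ES 2iL than in ES serum and that of miR-429 was not seen. Those of miR-200a and miR-200b share the seed AUCUUAC.
mmu-miR-200a-5p: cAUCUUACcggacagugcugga
mmu-miR-200b-5p: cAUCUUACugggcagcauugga
mmu-miR-429-5p: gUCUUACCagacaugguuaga

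The libraries held between 587363 reads (ELA 2iL) and 8056984 reads (ES serum) assigned to miRNAs, and both serum libraries were deeper than both 2iL libraries. A level of 3 reads, used as the limit of detection, equalled 0.372 RPM (reads per 1000000 reads on miRNAs) in ES serum and 5.11 RPM in ELA 2iL. The description field of the labels exchanges ES 2iL and ELA serum, and groups were taken from the source names and titles, which the column names match. As markers, the 5 guide arms of the miR-302/miR-367 cluster, typical of the primed epiblast, summed to 5384 RPM (ES) and 34066 RPM (ELA) with serum and 69.8 RPM (ES) and 5751 RPM (ELA) with 2iL. Among 6 ES cell markers (3p arms of miR-290a to miR-295), 2 were listed at 0 throughout, and the sum of the list ran from 45801 RPM (ELA serum) to 150596 RPM (ES 2iL), most of it mmu-miR-295-3p. Among markers of fibroblasts or smooth muscle, mmu-miR-143-3p made up nearly all of a sum between 1475 and 4847 RPM and mmu-miR-214-3p did not exceed 1.70 RPM. The 3 neural markers summed to between 264 and 433 RPM. Of 4 blood markers, 2 were listed under the names used (mmu-miR-223-3p and mmu-miR-451a), and these summed to at most 8.51 RPM. That sum leaves out mmu-miR-142a-5p, which had a mean log2 level of 9.98 over the libraries. The sum therefore sets no limit on blood miRNAs as a group.

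The summed family took a larger share of the serum libraries than of the 2iL libraries, and in ES cells this direction under RPM rested on miR-200b-3p. Of all reads, 0.591% belonged to it in ES serum (95% Wilson interval 0.586 to 0.596) and 0.665% in ELA serum (0.657 to 0.672). The shares with 2iL were 0.358% for ES cells (0.351 to 0.366) and 0.336% for ELA (0.321 to 0.351). These intervals, like all intervals given here, cover counting error only, as the reads carry no molecular identifiers. The sum was 1.65-fold lower in 2iL among ES cells and 1.98-fold lower among ELA, whereas ELA and ES cells from the same medium differed by 1.12-fold (serum, ELA higher) and 1.07-fold (2iL, ELA lower). Without miR-200b-3p, the family summed to 2549 RPM (ES) and 3114 RPM (ELA) with serum and 2827 RPM (ES) and 2002 RPM (ELA) with 2iL, which is 1.11-fold higher in 2iL among ES cells and 1.56-fold lower among ELA. Relative to the median of all miRNAs in each pair, that remainder was lower in 2iL in both (−0.35 and −0.98 on the log2 scale). In such bulk libraries fewer cells with a miRNA and less of it per cell cannot be told apart.

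mmu-miR-200b-3p was the most abundant member in all libraries but ES 2iL. It measured 3361 RPM (ES) and 3533 RPM (ELA) with serum and 757.9 RPM (ES) and 1355 RPM (ELA) with 2iL, which ranked it between 37th and 91st of all miRNAs listed. Both serum libraries were thus above both 2iL libraries, and ES 2iL was the lowest. From the same locus, mmu-miR-200a-3p measured 285 RPM (ES) and 309 RPM (ELA) with serum and 179 RPM (ES) and 172 RPM (ELA) with 2iL. Its serum libraries were again the higher ones, by a smaller margin. The remaining 3p arm of the locus had another order, since mmu-miR-429-3p measured 378 RPM (ES) and 439 RPM (ELA) with serum and 636 RPM (ES) and 441 RPM (ELA) with 2iL. Here ES 2iL was the highest library.

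At the chromosome 6 locus, mmu-miR-141-3p was the main product, with 1490 RPM (ES) and 1881 RPM (ELA) with serum and 1744 RPM (ES) and 1037 RPM (ELA) with 2iL. Only ELA 2iL stood below the others, and in ES 2iL the miRNA stood above miR-200b-3p as the most abundant of the family. mmu-miR-200c-3p was the evenest 3p arm, with 186 RPM (ES) and 279 RPM (ELA) with serum and 203 RPM (ES) and 216 RPM (ELA) with 2iL. The order of the 3p arms was miR-200b, miR-141, miR-429, miR-200a and miR-200c in both serum libraries, each apart from the next by more than counting error. miR-200c-3p ranked above miR-200a-3p in both 2iL libraries, although in ELA 2iL their ratio of 1.26 had an exact 95% interval from 0.961 to 1.65. RPM values of different miRNAs are set side by side without a correction for ligation preference, and all members are 21 to 23 bases long.

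The 5p arms, the strand that is mostly discarded, were lower than the 3p arm of their hairpin in every library. mmu-miR-200a-5p measured 101.2 RPM (ES) and 73.8 RPM (ELA) with serum and 10.8 RPM (ES) and 30.6 RPM (ELA) with 2iL (18 reads). mmu-miR-200b-5p followed the same order at a lower level, with 30.3 RPM (ES) and 22.3 RPM (ELA) with serum and 4.70 RPM (ES) and 13.6 RPM (ELA) with 2iL, the 2iL values resting on 13 and 8 reads. For miR-200a-5p and miR-200b-5p both serum values were above both 2iL values, although among ELA the difference of miR-200b-5p lay within counting error. mmu-miR-141-5p measured 76.3 RPM (ES) and 105.1 RPM (ELA) with serum and 45.2 RPM (ES) and 90.2 RPM (ELA) with 2iL. mmu-miR-200c-5p stayed between 1.70 RPM (1 read, ELA 2iL) and 4.41 RPM (19 reads, ELA serum), and no difference in it was detectable at this depth.

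**Figure D1:**
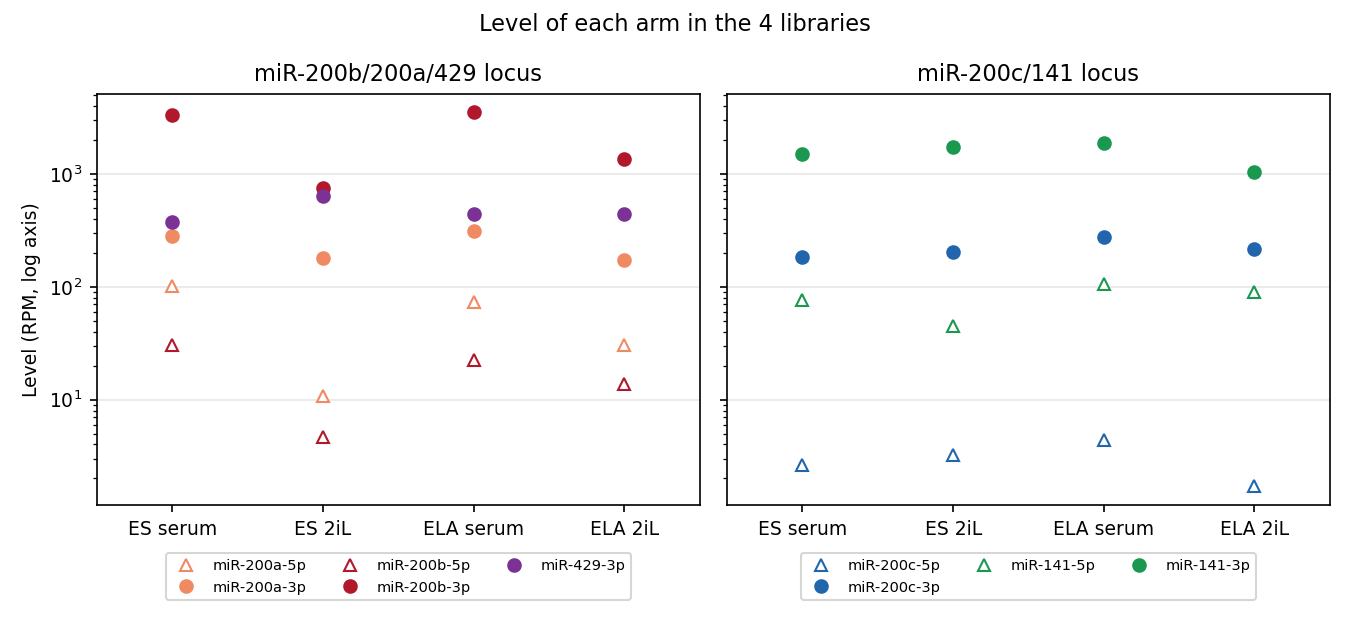
Level of the 9 detected miR-200 family miRNAs (RPM, log axis) in the 4 libraries, for the chromosome 4 locus (left) and the chromosome 6 locus (right); filled circles are 3p arms, open triangles 5p arms, and each point is 1 library. miR-200b-3p lies at 3361 RPM in ES serum and 757.9 RPM in ES 2iL, while miR-141-3p stays between 1037 and 1881 RPM.

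Members were first compared between the media, at each stage. Among ES cells, mmu-miR-200b-3p was 4.43-fold lower in 2iL (exact 95% counting interval 4.24 to 4.64), and among ELA 2.61-fold lower (2.43 to 2.80). For mmu-miR-200a-5p the corresponding values were 9.33-fold (6.48 to 13.9) and 2.41-fold (1.50 to 4.12). mmu-miR-200b-5p was 6.45-fold lower in ES 2iL (3.70 to 12.3), and its 1.64-fold difference among ELA lay within counting error (0.798 to 3.90). mmu-miR-200a-3p was lower by 1.59-fold (1.44 to 1.76) and 1.80-fold (1.47 to 2.22). These are the arms of both upstream hairpins of the chromosome 4 locus, and each was lower in 2iL at both stages.

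The third hairpin of that locus and the other locus differed from this pattern. mmu-miR-429-3p was 1.68-fold higher in ES 2iL than in ES serum (1.58 to 1.78) and nearly equal in the ELA libraries (1.00-fold, 0.878 to 1.14). mmu-miR-141-3p was 1.17-fold higher in ES 2iL (1.13 to 1.21) but 1.81-fold lower in ELA 2iL (1.67 to 1.97). mmu-miR-200c-3p differed by 1.10-fold among ES cells (0.993 to 1.21) and was 1.29-fold lower in ELA 2iL (1.07 to 1.56). These directions in ES cells depend on the scaling. Relative to the median of all miRNAs in the pair (0.50 higher in 2iL on the log2 scale), the ES difference was −0.28 for miR-141-3p, −0.37 for miR-200c-3p and 0.24 for miR-429-3p, and among ELA (median 0.35) it was −1.21, −0.71 and −0.34. mmu-miR-141-5p was 1.69-fold lower in ES 2iL (1.39 to 2.06), and among ELA the 1.17-fold difference lay within counting error (0.875 to 1.58).

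The members were read against all other miRNAs. On log2(RPM + 1), with a mean over the pair of libraries of at least 5 and a difference of at least 1, 2 of the 7 members that reached this level were lower in ES 2iL than in ES serum and 0 were higher, where 14.8% of 310 miRNAs were lower and 32.9% higher. Among ELA the same 2 members, miR-200b-3p and miR-200a-5p, were lower in 2iL and 0 were higher, against 8.94% lower and 20.9% higher of 302 miRNAs. In the ES pair the median difference of the 7 members was −0.67, and that of the 310 miRNAs was 0.50. In the ELA pair it was −0.84 against 0.35. Because the median of the 302 expressed miRNAs (mean of at least 5 over the 4 libraries) was 0.42 higher in 2iL under RPM, differences relative to it are given below as well.

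Fitted to log2(RPM + 1) of all 4 libraries with a term for stage and one for medium, limma called 0 of the 9 members for the medium and 0 of the 599 miRNAs tested (0.0%), of which 176 had an unadjusted p-value under 0.05. The largest contrasts were those of mmu-miR-200a-5p (−2.17 ± 0.61, standard error, or −2.60 relative to the median; adjusted p = 0.127), mmu-miR-200b-3p (−1.76 ± 0.47, relative −2.18; adjusted p = 0.120) and mmu-miR-200b-5p (−1.56 ± 0.60, relative −1.98; adjusted p = 0.170). All of the 9 members but mmu-miR-429-3p (0.38 ± 0.47, relative −0.04) had a contrast below 0, and with TMM or DESeq2 scaling factors all 9 did (miR-429-3p −0.13 and −0.07). The median of the 9 was −0.48, and that of the 599 was 0.32. With TMM and DESeq2 factors the median of the 599 was itself below 0 (−0.16 and −0.10), and that of the 9 was −0.98 and −0.92. The share of the 599 with a contrast below 0 was not counted. Of all miRNAs tested, 4.17% had a contrast as low as that of miR-200a-5p and 7.51% one as low as that of miR-200b-3p.

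The call depended on the test and the scaling. With whole reads, the quasi-likelihood test of edgeR called 2 of the 9 members, mmu-miR-200b-3p (adjusted p = 0.0107) and mmu-miR-200a-5p (adjusted p = 0.0180), both lower in 2iL, where it called 7.01% of 599 miRNAs lower and 10.7% in either direction. DESeq2's Wald test called the same 2 members (adjusted p = 0.00183 and 0.00164), with 8.87% of 541 miRNAs lower. Over all tests and scalings tried, the adjusted p-value ran from 0.00183 to 0.330 for miR-200b-3p and from 0.00164 to 0.313 for miR-200a-5p. Depth differed between the media in the same direction as these miRNAs, and its part in the result was not tested.

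**Figure D2:**
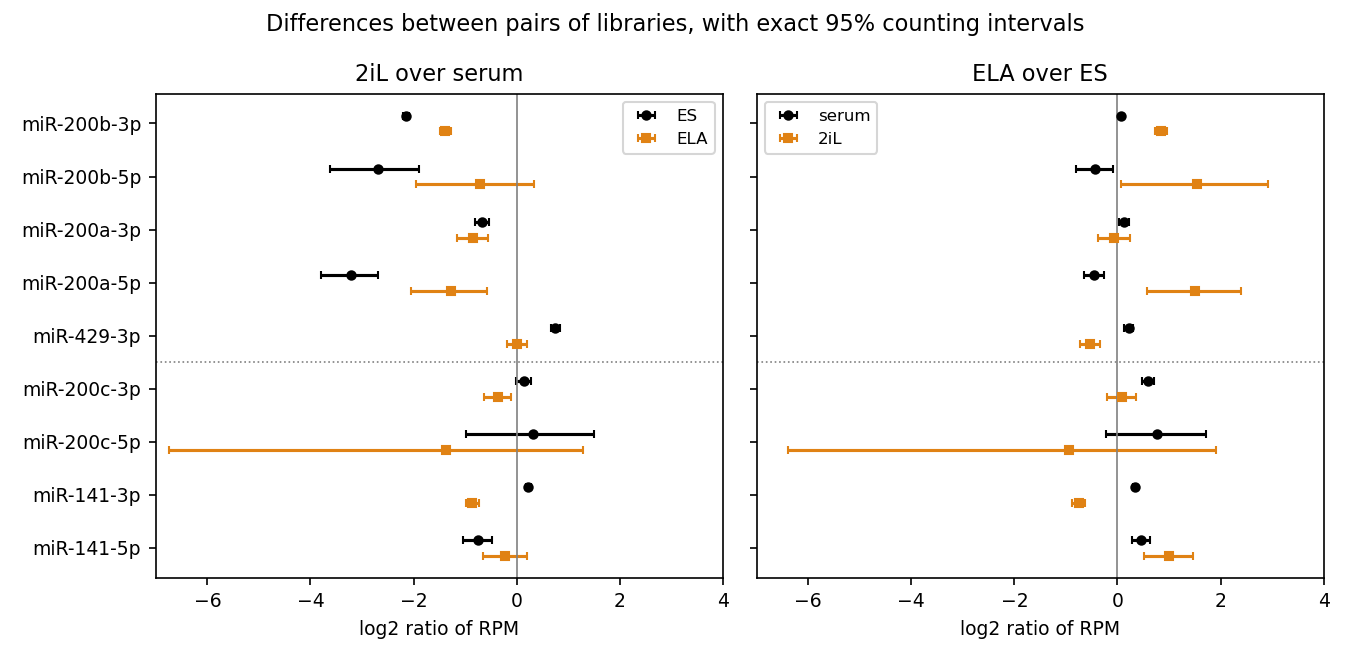
log2 ratio of RPM between pairs of libraries for the 9 detected members, 2iL over serum at each stage (left) and ELA over ES in each medium (right); bars are exact 95% counting intervals and the dotted line parts the chromosome 4 members (above) from the chromosome 6 members. Both arms of miR-200b and miR-200a lie left of 0 in the medium panel, and miR-429-3p lies at 0.75 in ES cells and 0.01 in ELA.

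The next comparison asked whether the family differs across the ES–ELA transition. In serum, 8 of the 9 members differed by more than counting error, which at this depth took no more than 1.05-fold for mmu-miR-200b-3p. The share of all miRNAs that differed by more than counting error was not counted. None of the 9 members differed by 1 or more on the log2 scale, where 8.33% of 288 miRNAs were higher and 14.6% lower by at least 1. mmu-miR-200c-3p was the most different 3p arm, 1.50-fold higher in ELA serum (1.39 to 1.62), followed by mmu-miR-141-3p, 1.26-fold higher (1.23 to 1.30). mmu-miR-200b-3p differed by 1.05-fold (1.03 to 1.07). The 5p arms of the chromosome 4 locus were lower in ELA serum, miR-200a-5p by 1.37-fold (1.20 to 1.57) and miR-200b-5p by 1.36-fold (1.07 to 1.74).

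In cells from 2iL the members differed in direction. mmu-miR-200b-3p was 1.79-fold higher in ELA 2iL than in ES 2iL (1.65 to 1.94), and the 5p arms of the same locus were 2.83-fold (miR-200a-5p, 1.48 to 5.24) and 2.90-fold higher (miR-200b-5p, 1.04 to 7.55). mmu-miR-141-3p was 1.68-fold lower (1.55 to 1.83) while mmu-miR-141-5p, from the same hairpin, was 2.00-fold higher (1.42 to 2.78). mmu-miR-429-3p was 1.44-fold lower (1.26 to 1.65). mmu-miR-200a-3p and mmu-miR-200c-3p did not differ beyond counting error. None of the 6 members with a mean of at least 5 differed by 1 or more, where 15.3% of 314 miRNAs were higher and 25.2% lower by at least 1. miR-200a-5p and miR-200b-5p did (1.42 and 1.36) but lay below that level.

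With limma, 0 of the 9 members and 0 of the 599 miRNAs (0.0%) passed for stage, while 125 of the 599 had an unadjusted p-value under 0.05. The largest contrast was that of mmu-miR-141-5p (0.72 ± 0.45, adjusted p = 0.392), and the adjusted p-values of the other members were 0.592 or more. edgeR called 6.51% of the 599 and DESeq2 9.06% of 552, with none of the members among them. The median contrast of the 9 was 0.34, and that of the 599 was −0.22.

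**Figure D3:**
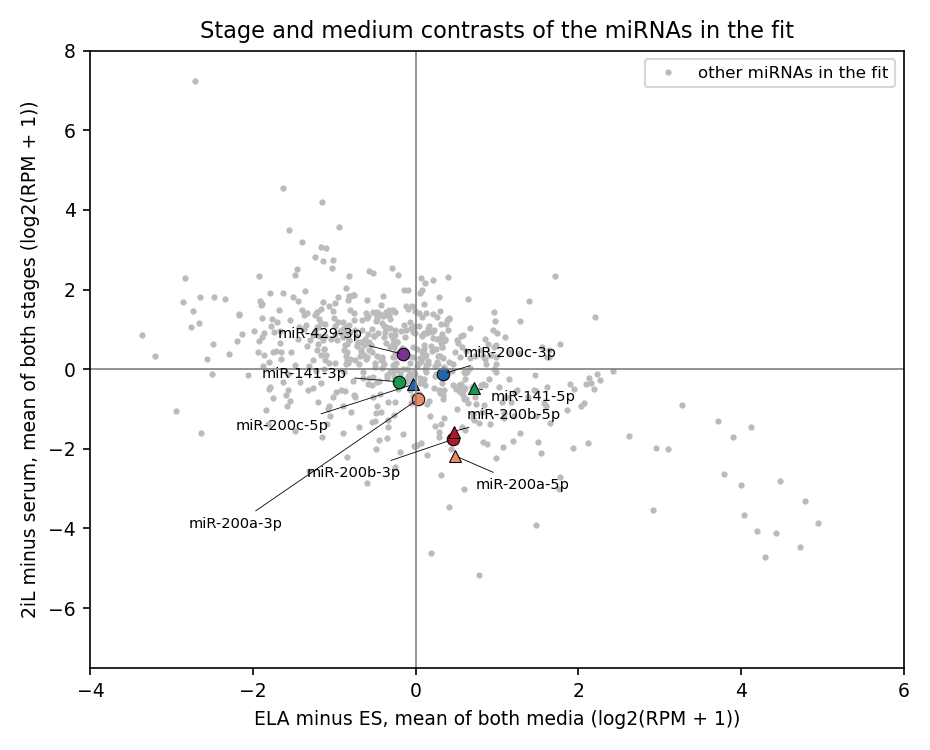
Contrast for stage (horizontal) and for medium (vertical) on log2(RPM + 1), each averaged over 2 pairs of libraries, for the 599 miRNAs in the fit; grey points are other miRNAs, circles 3p arms and triangles 5p arms of the family. miR-200a-5p, miR-200b-3p and miR-200b-5p lie lowest of the family on the medium axis (−2.17, −1.76 and −1.56), and all members lie within 0.72 of 0 on the stage axis.

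The loci were then compared directly. The ratio of the summed reads of the miR-200c and miR-141 arms to those of the miR-200b, miR-200a and miR-429 arms is taken within a library and is therefore free of the scaling between libraries. It was 0.422 in ES serum (exact 95% counting interval 0.414 to 0.431) and 0.518 in ELA serum (0.506 to 0.531). In 2iL it was 1.26 for ES cells (1.21 to 1.31) and 0.668 for ELA (0.610 to 0.732). The chromosome 6 locus thus gave the smaller part of the family reads in 3 libraries and the larger part in ES 2iL. On the log2 scale the ratio was higher in 2iL by 1.57 among ES cells and by 0.37 among ELA, a mean of 0.97. The exact two-sided permutation test over libraries gave p = 0.333, the smallest value that 2 against 2 libraries allow. For the ES–ELA transition the ratio was higher by 0.30 in serum and differed by −0.91 in 2iL (mean −0.31, p = 1.0 in the same exact test).

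The loci differed in what they brought to this ratio. The chromosome 4 locus summed to 4156 RPM (ES) and 4377 RPM (ELA) with serum and 1588 RPM (ES) and 2012 RPM (ELA) with 2iL, 2.62-fold lower in 2iL among ES cells (2.54 to 2.70) and 2.18-fold lower among ELA (2.05 to 2.31). The chromosome 6 locus summed to 1754 RPM (ES) and 2270 RPM (ELA) with serum and 1996 RPM (ES) and 1345 RPM (ELA) with 2iL. Under RPM it was 1.14-fold higher in ES 2iL (1.10 to 1.17) and 1.69-fold lower in ELA 2iL (1.57 to 1.82). Relative to the median of all miRNAs it was lower in 2iL in both pairs (−0.32 and −1.10 on the log2 scale).

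The size of the contrast between loci depended on which members were summed. Without miR-200b-3p and miR-141-3p the medium contrast of the log2 ratio was −0.05 in place of 0.97, and the ratio itself stayed between 0.303 and 0.469. Among the minor members, the lower levels of miR-200a-5p, miR-200b-5p and miR-200a-3p in 2iL stood beside the higher level of miR-429-3p in ES 2iL, so the members of the locus did not share 1 direction. Without miR-429-3p alone, a choice made after its values were seen, the medium contrast was 1.37. With 3p arms only it was 0.95, with 5p arms only, which leaves out miR-200b-3p and miR-141-3p, 1.62, and as the difference of the mean log2 levels of the members 0.66.

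**Figure D4:**
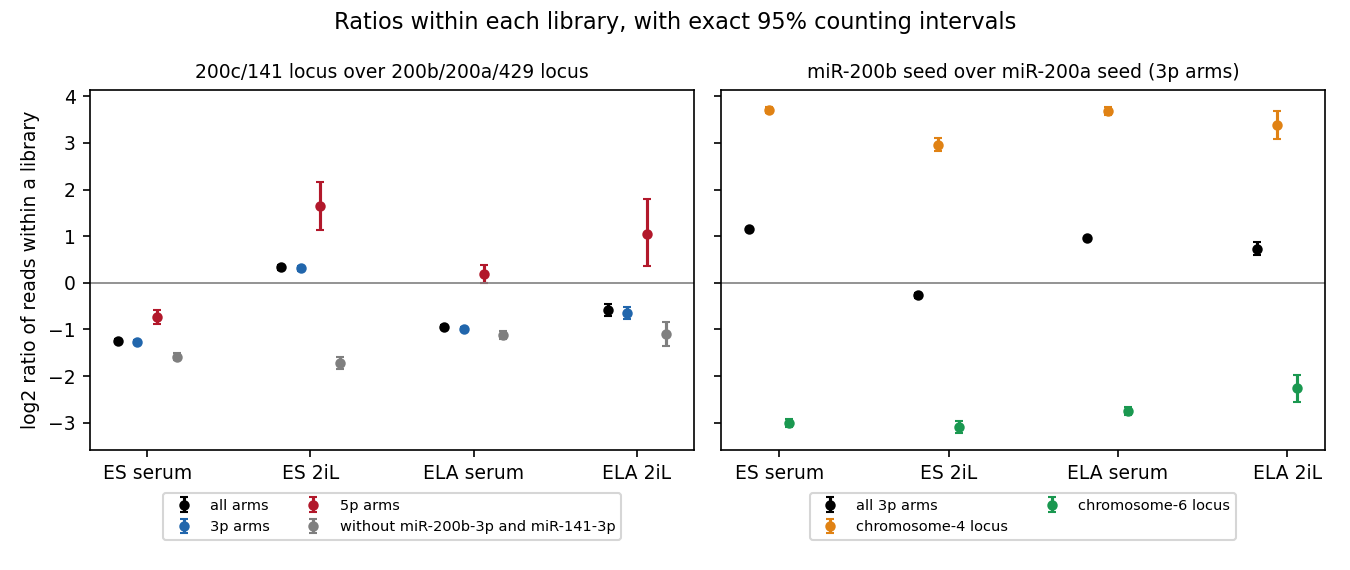
log2 ratio of reads within each library, for the chromosome 6 locus over the chromosome 4 locus (left) and for the 3p arms with the seed of miR-200b over those with the seed of miR-200a (right); points are single libraries and bars exact 95% counting intervals. On the left, ES 2iL stands above 0 for all arms (0.33) and the other libraries below it, and the grey points without miR-200b-3p and miR-141-3p stay between −1.72 and −1.09.

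Since the seed, more than the locus, sets which targets a miRNA can pair with, the 3p arms were also summed by seed. The AAUACUG group (miR-200b, miR-200c and miR-429) took 0.392% (ES) and 0.425% (ELA) of all reads with serum and 0.160% (ES) and 0.201% (ELA) with 2iL. The AACACUG group (miR-200a and miR-141) took 0.177% (ES) and 0.219% (ELA) with serum and 0.192% (ES) and 0.121% (ELA) with 2iL. Their ratio was 2.21 (2.17 to 2.26) for ES and 1.94 (1.89 to 1.99) for ELA from serum, and 0.830 (0.798 to 0.864) for ES and 1.66 (1.52 to 1.83) for ELA from 2iL. ES 2iL was the only library with more reads of the AACACUG seed.

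Within the loci the balance of seeds was opposite. At the chromosome 4 locus the AAUACUG seed had between 7.77 (ES 2iL) and 13.1 times (ES serum) the reads of the other, and at the chromosome 6 locus between 0.117 (ES 2iL) and 0.209 times (ELA 2iL). miR-200b-3p and miR-141-3p were the most abundant carriers of their seed in all 4 libraries.

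The use of both arms of a hairpin is another ratio within a library. In Mir200a the 5p arm held 26.2% (95% Wilson interval 24.7 to 27.8) of the reads of ES serum and 19.3% (17.4 to 21.2) of those of ELA serum. With 2iL it held 5.70% (4.02 to 8.03) for ES cells and 15.1% for ELA (9.79 to 22.6, with 18 reads of the 5p arm). ES 2iL stood below the other libraries beyond counting error. In Mir141 the share was 4.87% in ES serum (4.51 to 5.26) and 5.29% in ELA serum (4.84 to 5.79), and with 2iL it was 2.52% (2.12 to 3.00) for ES cells and 8.01% (6.17 to 10.3) for ELA. ES 2iL was again the lowest library, and here ELA 2iL was the highest.

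The 5p shares of the other hairpins were low in all libraries. The 5p share of Mir200b lay between 0.616% and 0.995% and that of Mir200c between 0.781% and 1.57%, with overlapping intervals except those of Mir200b in both serum libraries (0.788 to 1.01 in ES serum, 0.513 to 0.765 in ELA serum). Mir429 had 0 reads of its 5p arm beside 3047 reads of the 3p arm in ES serum, which allows a share of up to 0.0985% by the limit of 3 reads and up to 0.126% by the Wilson interval. In ELA 2iL, 0 beside 259 reads allows up to 1.16% and 1.46% by the same limits. Of 91 hairpins with both arms listed and at least 6958 reads in one of them, the total of miR-429-3p over the libraries, 3 had the other arm at 0 in each library (miR-429, miR-30e and miR-142a). How reads on overlapping or renamed entries were assigned was not stated, and its part in the 0 of miR-429-5p was not tested.

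**Figure D5:**
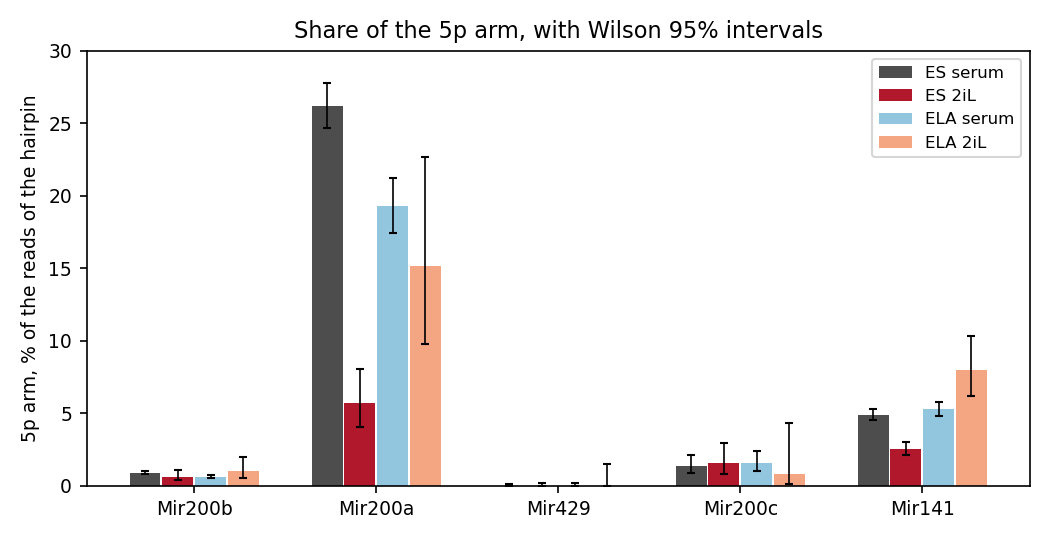
Share of the 5p arm among the reads of each hairpin (percent, axis from 0) in the 4 libraries; error bars are Wilson 95% intervals. Mir200a is at 26.2% in ES serum and 5.70% in ES 2iL, Mir141 is lowest in ES 2iL (2.52%), and the bars of Mir200b and Mir200c stay below 2%.

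Among the detected members, likeness of pattern was measured as the Euclidean distance between centred log2(RPM + 1) profiles over the 4 libraries. miR-200a-5p lay at 0.61 from miR-200b-5p and at 0.69 from miR-200b-3p, and miR-200b-5p at 0.55 from miR-200b-3p. miR-200a-3p was nearer to miR-141-3p of the other locus (0.67) than to miR-200b-3p (1.19) or to its own 5p arm (1.81). miR-429-3p was likewise nearer to miR-200c-3p (0.71) and miR-141-3p (0.72) than to miR-200b-3p of its own locus (2.35). With 4 libraries these distances are a description only.

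The same measure named the miRNAs outside the family with the nearest pattern, among 295 with a mean of at least 5. For the sum of the chromosome 4 locus these were mmu-miR-673-3p (distance 0.41), mmu-miR-540-3p (0.48) and mmu-miR-381-3p (0.50), all of which lie on mm9 chromosome 12, and the median distance of the candidates was 2.10. For the sum of the chromosome 6 locus they were mmu-miR-148a-5p (0.12), mmu-miR-532-5p (0.17) and mmu-miR-378a-3p (0.20), against a median of 1.52. The loci themselves were 1.18 apart.

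For miR-200b-3p alone, a profile added after its values were seen, the nearest miRNA was mmu-miR-127-3p of chromosome 12, at a distance of 0.02. mmu-miR-127-3p was far more abundant, between 40028 RPM (ES 2iL) and 185924 RPM (ELA serum). It had 52.0 times the reads of miR-200b-3p in ES serum (51.3 to 52.6) and 52.6 times in ELA serum (51.8 to 53.5). In 2iL it had 52.8 times for ES cells (50.6 to 55.2) and 52.6 times for ELA (49.0 to 56.5). All 4 intervals overlapped. No other pair among the 302 expressed miRNAs was as near to each other, and the median distance to the nearest miRNA was 0.23. The mature sequences of miR-127-3p and miR-200b-3p (RefSeq, both 22 bases) differ at 18 positions when aligned from the 5′ end and share no run longer than 3 bases. Whether any counts assigned to miR-200b-3p came from miR-127-3p was not tested, and every value given for miR-200b-3p, the locus ratio included, takes its counts as its own.

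Other miRNAs known to act on the same switch were counted beside the family. Of 13 miRNAs that restrain Zeb or Snail factors (the miR-30 and miR-34 families, miR-101, miR-153, miR-203 and miR-205), all were in the fit, and limma called 0 of them for stage and 0 for medium. Their summed level was 19769 RPM (ES) and 21827 RPM (ELA) with serum and 46349 RPM (ES) and 32976 RPM (ELA) with 2iL. It was higher in both 2iL libraries, where the sum of the miR-200 family was lower. Without miR-200b-3p the family sum was also higher in ES 2iL (2827 RPM) than in ES serum (2549 RPM). The median medium contrast of the 13 was 0.83, with 10 above and 3 below 0, where that of the 599 miRNAs tested was 0.32 and that of the 302 expressed 0.42. mmu-miR-30e-5p was the most abundant, with 6193 RPM (ES) and 7742 RPM (ELA) with serum and 15933 RPM (ES) and 13443 RPM (ELA) with 2iL. In ES 2iL it was followed by mmu-miR-30a-5p (9730 RPM) and mmu-miR-30d-5p (7397 RPM).

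One of these miRNAs had the order of miR-200a-5p. mmu-miR-203-3p, a miRNA of stratified epithelium that represses Snai2, measured 134.9 RPM (ES) and 75.0 RPM (ELA) with serum and 8.67 RPM (ES) and 25.5 RPM (ELA) with 2iL. edgeR called it lower in 2iL (adjusted p = 0.010), as did DESeq2 (adjusted p = 0.000203). Higher in 2iL by at least 1 at both stages were mmu-miR-30b-5p (2.28 and 1.44), which DESeq2 called (adjusted p = 0.0436) and edgeR did not, and mmu-miR-30c-5p (1.71 and 1.10), which neither called. Higher in ELA by at least 1 in both media were mmu-miR-34b-5p (1.05 in serum and 2.49 in 2iL) and mmu-miR-153-3p (1.29 and 1.66). DESeq2 called mmu-miR-34b-5p (adjusted p = 0.0429) and mmu-miR-34c-5p (adjusted p = 0.0298) for stage, and edgeR neither.

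A list of 13 miRNAs abundant in mesenchymal cells or known to favour the mesenchymal state had 12 members in the fit, and limma called 0 of them in either contrast. Their summed level was 22560 RPM (ES) and 9686 RPM (ELA) with serum and 25698 RPM (ES) and 9332 RPM (ELA) with 2iL. The median stage contrast of the 12 was −0.64, with 10 below 0, against −0.22 for all miRNAs tested. mmu-miR-22-3p, the most abundant of them in both 2iL libraries, had 6896 RPM (ES) and 2369 RPM (ELA) with serum and 15475 RPM (ES) and 3265 RPM (ELA) with 2iL, and DESeq2 called it lower in ELA (adjusted p = 0.0207). mmu-miR-143-3p (−1.10 in serum and −1.33 in 2iL) and mmu-miR-155-5p (−1.51 and −1.58) were also lower in ELA by at least 1 in both media without a call. For the medium, edgeR and DESeq2 called mmu-miR-21a-5p lower in 2iL (adjusted p = 0.0305 and 0.00897) and mmu-miR-145a-5p higher (0.0283 and 0.0102). mmu-miR-145a-5p measured 11.9 RPM (ES) and 4.18 RPM (ELA) with serum and 60.4 RPM (ES) and 35.8 RPM (ELA) with 2iL. mmu-miR-199b-5p (lower in 2iL) and mmu-miR-214-3p (higher in 2iL, not in the fit) also differed by at least 1 at both stages, but neither exceeded 2.78 RPM. Of 5 markers of differentiated epithelium, 2 of which also stand in the first list, limma called 0, and their median stage contrast was 0.31, with 3 above and 2 below 0. Their sum was 2260 RPM (ES) and 1669 RPM (ELA) with serum and 3591 RPM (ES) and 2363 RPM (ELA) with 2iL. The most abundant, mmu-miR-192-5p, was lower in ELA (−1.14 in serum and −1.54 in 2iL), as was mmu-miR-194-5p (−0.94 and −1.73), neither with a call. Without mmu-miR-192-5p, left out after its values were seen, the sum was higher in ELA. It was 561 RPM (ES) and 896 RPM (ELA) with serum and 646 RPM (ES) and 1352 RPM (ELA) with 2iL. The largest part of this difference was mmu-miR-375-3p, with 102 RPM (ES) and 416 RPM (ELA) with serum and 11.9 RPM (ES) and 550 RPM (ELA) with 2iL. mmu-miR-205-5p was higher in ELA (0.46 and 0.65) and mmu-miR-203-3p differed by −0.84 and 1.46, neither called for stage. mmu-miR-375-3p was higher in ELA (2.02 and 5.41) and was called by edgeR (adjusted p = 0.00674) and by DESeq2 (adjusted p = 4.33e-06).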

How the data were processed

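Small RNA-seq libraries (TruSeq Small RNA kit) were sequenced on a MiSeq and demultiplexed with CASAVA 1.8, per the submitters' processing notes. The authors trimmed adaptors with Trimmomatic, mapped reads to mm9 (NCBI37) with Bowtie, counted them on mature miRNAs of miRBase20 with featureCounts and deposited RPM values, each column summing to 1000000 over the listed miRNAs. Versions of the other tools, the mismatches allowed and the treatment of multiply mapping reads are not given in the sources used here. As a share, an RPM value depends on the abundance of all other miRNAs. All values above 0 (100%, within 0.01 reads) were whole multiples of 1 read, which gave back the read numbers (587363 to 8056984 per library; 0 columns were left out).

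Levels were analysed as log2(RPM + 1), with a pseudocount of 1 RPM that understates changes of low miRNAs. limma 3.58.1 (R 4.3.3) was fitted with stage and medium over all 4 libraries to 599 miRNAs, with Benjamini-Hochberg adjustment at 0.05 and 1 residual degree of freedom (3.79 prior). edgeR 4.0.16 and DESeq2 1.42.0 were run on the recovered reads. All tests are two-sided, and the scripts were tested on simulated data. Differences between libraries carry exact (Clopper-Pearson) 95% intervals and shares Wilson 95% intervals. Members were taken by name. Members of the lists of Zeb or Snail restraining and of mesenchymal miRNAs were named where they differed by at least 1 (log2) in the same direction in both pairs, were the most abundant of their list or were called, and further miRNAs as the 3 nearest in pattern to a locus. Cell type markers are given by their sums, with single markers chosen after their values were seen. Members and lists were chosen with earlier results of these data known.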

Additional observations from a re-analysis of the deposited data

Results flagged for a closer look

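For 4 members the ES–ELA difference (log2(RPM + 1)) had opposite directions in the 2 media, with counting intervals clear of no difference in both. The share of all miRNAs that meet this rule was not counted, so the opposition is not shown to be particular to the family. The dependence on the medium was not tested, since each difference compares 1 library with 1 library. The difference was −0.45 in serum and 1.42 in 2iL for mmu-miR-200a-5p, and −0.43 and 1.36 for mmu-miR-200b-5p. For mmu-miR-141-3p it was 0.34 and −0.75, and for mmu-miR-429-3p 0.22 and −0.53. mmu-miR-141-3p also had opposite directions for the medium at the 2 stages, 0.23 in ES cells and −0.86 in ELA, but relative to the median of all miRNAs in each pair both were below 0 (−0.28 and −1.21), so this opposition rests on the RPM scaling. The stage differences of the 4 members kept opposite directions relative to that median. In all of these, ES 2iL or ELA 2iL was the highest or the lowest library. The miR-200b-5p values in 2iL rest on 13 and 8 reads.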

How the results depend on the processing

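No paired analysis by replicate number was possible because the labels carry none and each group is 1 library. The limma fit with both terms compares ELA with ES cells of the same medium, and the fit without the other term does not. Against 0 calls by limma for stage and 0 for medium, the numbers of miRNAs called were 28 and 55 with TMM factors, 84 and 112 with DESeq2 size factors, 89 and 109 with totals without the 5 most abundant miRNAs, 99 and 130 with no filter, 9 and 38 with a pseudocount of 5 RPM, 39 and 64 with edgeR and 50 and 80 with DESeq2's Wald test. They stayed at 0 with a pseudocount of 0.5 RPM and without the other term. The cause was not tested. Among the alternatives for single members, 133 values kept direction and side of the threshold, 28 with no adjusted p-value (single pairs of libraries, and miR-200c-5p in DESeq2) kept direction, 14 passed it (the medium contrasts of miR-200a-5p, miR-200b-3p and miR-200b-5p) and 23 changed sign.

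The stage contrast changed sign within serum for miR-200a-5p (−0.45), miR-200b-5p (−0.43), miR-200c-5p (0.58), miR-141-3p (0.34) and miR-429-3p (0.22), and within 2iL for miR-200a-3p (−0.060). For miR-200c-5p it was also above 0 with TMM (0.059), DESeq2 factors (0.11), no top 5 (0.029), a pseudocount of 5 RPM (0.0033), the Wald test (0.31) and edgeR (0.47). For miR-141-3p it was 0.0072 with the Wald test, and for miR-429-3p 9.92e-05 with DESeq2 factors, 0.059 with the Wald test and 0.023 with edgeR. The medium contrast changed sign among ES cells for miR-200c-5p (0.24), miR-200c-3p (0.13) and miR-141-3p (0.23). For miR-429-3p it was −0.13 with TMM, −0.067 with DESeq2 factors, −3.63e-05 with the Wald test and −0.041 with edgeR.

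The log2 locus ratio had a stage contrast of −0.31, which was 0.17 with 5p arms, 0.55 without the most abundant member of each locus, −0.49 without miR-429-3p (added after seeing the data), −0.0094 with mean log2 levels, 0.30 within serum and −0.91 within 2iL. Its medium contrast of 0.97 was 1.62, −0.053, 1.37 and 0.66 under the same choices, 1.57 among ES cells and 0.37 among ELA. The log2 seed ratio had a stage contrast of 0.41, which was 0.20 and 0.55 at the chromosome 4 and chromosome 6 loci, −0.19 within serum and 1.00 within 2iL. Its medium contrast of −0.82 was −0.53 and 0.20 at these loci, −1.41 among ES cells and −0.22 among ELA. Without miR-200b-3p (chosen after seeing the data) the medium difference of the family sum was 0.15 among ES cells in place of −0.72, and −0.64 among ELA in place of −0.99. Without ELA 2iL, the shallowest library (587363 reads, chosen after seeing the data), the serum pair for stage and the ES pair for medium are what remains.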
